A study of Rattus norvegicus with 16 samples.

Results

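The plasma proteins described here are 47 genes of complement, coagulation and the acute-phase response that the liver makes and secretes. They are grouped here by function, and the list was drawn up with earlier results of these data known. A listed gene was measured through the probe sets paired with its symbol and no other, and a probe set was kept where its mean level over the 16 arrays was at least the 75th percentile over the whole array (log2 6.01, an intensity of 63.6). C2, Cfd and F11 had no such probe set, and the only probe set of F5 lay under the threshold. The other 43 genes were tested, out of 12156 genes in all, and rested on 600 of their 642 probe sets out of 103692 kept. Kng1 rested on 4 kept probe sets, 3 of them annotated under the older symbol Kng1l1, with 24 probe sets shared between symbols left unused, so its value is uncertain.

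Liver RNA of female Sprague-Dawley rats, 5 weeks of age, was hybridised to whole-transcript exon arrays, with 4 arrays for each of 4 diets. All rats ate Teklad mash (4%). The mash held UAB30 at 200 ppm, 4-methyl-UAB30 (MeUAB30) at 200 ppm or Targretin, which is bexarotene, at 150 ppm, each fed for 7 days, and the Control mash held no compound and has no stated period. All 3 activate the retinoid X receptor, which pairs with other nuclear receptors on DNA. UAB30 and MeUAB30 differ by the 4-methyl group and were fed at the same dose, so they were compared directly, whereas the Targretin values stand beside theirs without a test. The sources used here do not say that the arrays of a diet came from separate rats, so p-values measure the spread between arrays, which may be technical. With a single group per diet, compound and diet batch cannot be told apart.

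Hepatocytes are the main source of most of these proteins. In complement, lectins such as mannose-binding lectin, or antibody through C1, activate serine proteases that lead to cleavage of C3 and then to assembly of the membrane attack complex from C5 to C9. Coagulation runs through a cascade of proteases, several of which need vitamin K-dependent carboxylation, to thrombin and fibrin, and serpins and plasmin restrain or reverse it. During inflammation, cytokines such as interleukin-6 and interleukin-1 change the hepatic output of acute-phase proteins, partly through the transcription factors C/EBP beta, STAT3 and NF-kappa-B; in rats, alpha-2-macroglobulin (A2m) and alpha-1-acid glycoprotein (Orm1) are strong acute-phase proteins and fetuin-A (Ahsg) is a negative one.

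The genes ranked among the brightest on these arrays. Of the 43 tested genes, 41 lay at or above the 90th percentile of gene level and 20 at or above the 99th, and their median level was 11.82 log2 units against 7.36 for all genes. Such ranks set probe sets of different genes side by side and do not order transcript amounts. A2m, at 6.88, lay lowest, and only 11 of its 42 probe sets were kept. Its kept probe sets nearest the threshold had mean levels of 6.07, 6.16 and 6.44, and those just under it 5.94, 5.92 and 5.91. Its brightest probe sets had mean levels of 10.50, 9.18, 8.35 and 8.19. Albumin, which marks hepatocytes, was the gene with the highest level, at 14.03. Standard errors of the log2 differences had a median of 0.115 for the 43 genes and 0.166 for all genes. In tissue RNA, a lower share of hepatocytes and less RNA per hepatocyte cannot be told apart.

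Array medians ran from 22.2 to 23.8 in intensity, and no 2 arrays held identical values (correlations 0.894 to 0.983). In each diet the array with the narrowest intensity range, the log2 of its 99th percentile over its median, also had the lowest mean level of the 43 genes. These arrays were UAB30 3, MeUAB30 1, Targretin 2 and Control 3, with ranges of 6.14, 6.15, 6.08 and 6.06. The mean level of the 43 genes was 11.74 on UAB30 3, 11.87 on MeUAB30 1, 11.39 on Targretin 2 and 11.58 on Control 3. On the other arrays it ran from 11.77 to 11.94 with UAB30, was 11.88 on each MeUAB30 array, and ran from 11.63 to 11.72 with Targretin and from 11.71 to 11.81 in Control. Targretin 2 and Control 3 also correlated least with the other arrays of their own diet, at a mean of 0.929 and 0.925. The counts of each gene list below are therefore given with and without these arrays, the 4 being called the narrow-range arrays. That name refers to the rank within a diet, since UAB30 2, which stayed in, also had a range of 6.15. Leaving out Targretin 2 and Control 3 was chosen after seeing the data. The 4 narrow-range arrays are likewise defined by values of these data, and they had the lowest mean of the 43 genes in their diets.

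**Figure D1:**
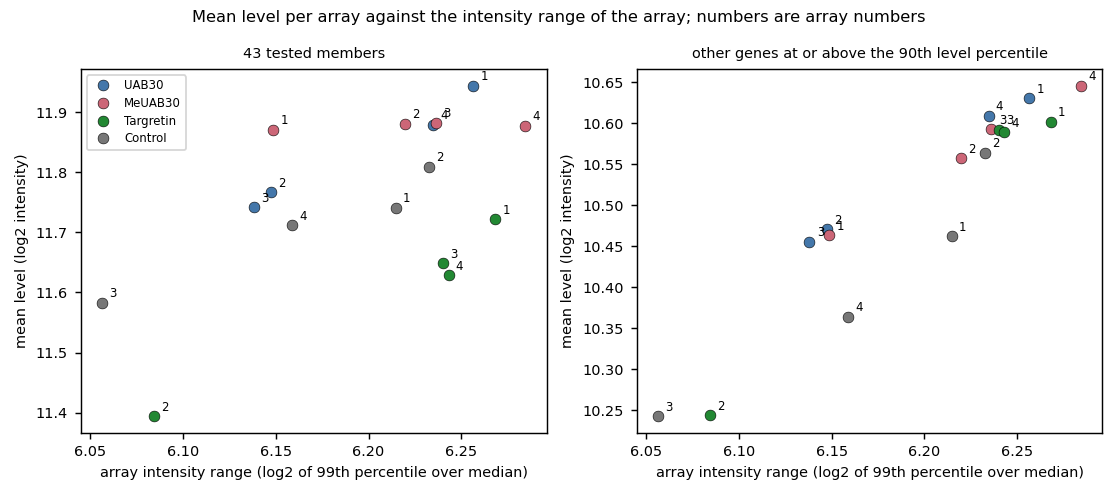
Mean level of the 43 tested genes (left, log2 intensity) and of other genes at or above the 90th level percentile (right), against the intensity range of each array (log2 of the 99th percentile over the median); each point is an array and carries its number. Control 3 and Targretin 2 have the narrowest ranges, 6.06 and 6.08, and the lowest means among the other bright genes, while the MeUAB30 points of the 43 genes all lie near 11.88.

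With MeUAB30, 7 of the 43 genes rose and 0 fell against Control (limma, Benjamini-Hochberg adjusted p under 0.05). The share of 16.3% stood beside 9.89% of all genes called in this comparison, 7.88% higher and 2.01% lower, and beside 29.8% called among genes at or above the 90th level percentile, 22.7% higher and 7.07% lower. The genes that rose were Orm1, Mbl1, Lbp, Serping1, C9, C1s and Cfb, of the acute phase and of complement, with none from the clotting cascade. With Targretin, 0 rose and 4 fell, C1r, Cfi, A2m and C8b, a share of 9.3% beside 2.18% of all genes called, 0.666% lower and 1.51% higher, and 9.95% of the bright genes, 2.47% lower and 7.48% higher. With UAB30, 0 of 43 were called, beside 0.0823% of all genes, and 3 (Mbl1, Orm1 and Lbp) had an unadjusted p under 0.05, as did 7.83% of all genes. Nothing particular to the 43 genes is read from these shares.

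The medians of the 43 log2 changes against Control were 0.11 with UAB30, 0.09 with MeUAB30 and -0.10 with Targretin, beside 0.05, 0.06 and -0.01 for all genes. Changes were above 0 for 36 of the 43 with UAB30, 28 with MeUAB30 and 14 with Targretin, beside 61.3%, 59.7% and 48.4% of all genes. The 3 comparisons share the Control arrays, so likeness between them is not a result. The 4 MeUAB30 arrays lay wholly above the 4 Control arrays for 15 of the 43 genes and wholly below for 1 (Ahsg), where 14.4% of all genes had groups that did not overlap, 11.7% higher and 2.78% lower. With Targretin the groups did not overlap for 12 genes, 11 lower and 1 higher (Masp2), beside 5.33% of all genes, 2.34% lower and 2.99% higher, and with UAB30 for 0 genes, beside 3.4%. Non-overlap was not counted for the bright genes alone, and the 43 had smaller standard errors than all genes (median 0.115 against 0.166). Nothing particular to the 43 genes is read from the non-overlap counts. Without Targretin 2 and Control 3, 9 genes rose and 3 fell with MeUAB30, 4 fell with Targretin and 0 were called with UAB30. Over all genes this run called 1283 higher and 1073 lower with MeUAB30, from 958 and 244 with all arrays. With Targretin it called 236 higher and 110 lower, from 184 and 81. Without all 4 narrow-range arrays, 7 rose and 2 fell with MeUAB30 and 5 fell with Targretin. Over all genes, 1499 were then called higher and 947 lower with MeUAB30, and 336 and 159 with Targretin. Nothing particular to the 43 genes, or to a list below, is read from the counts of these runs.

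**Figure D2:**
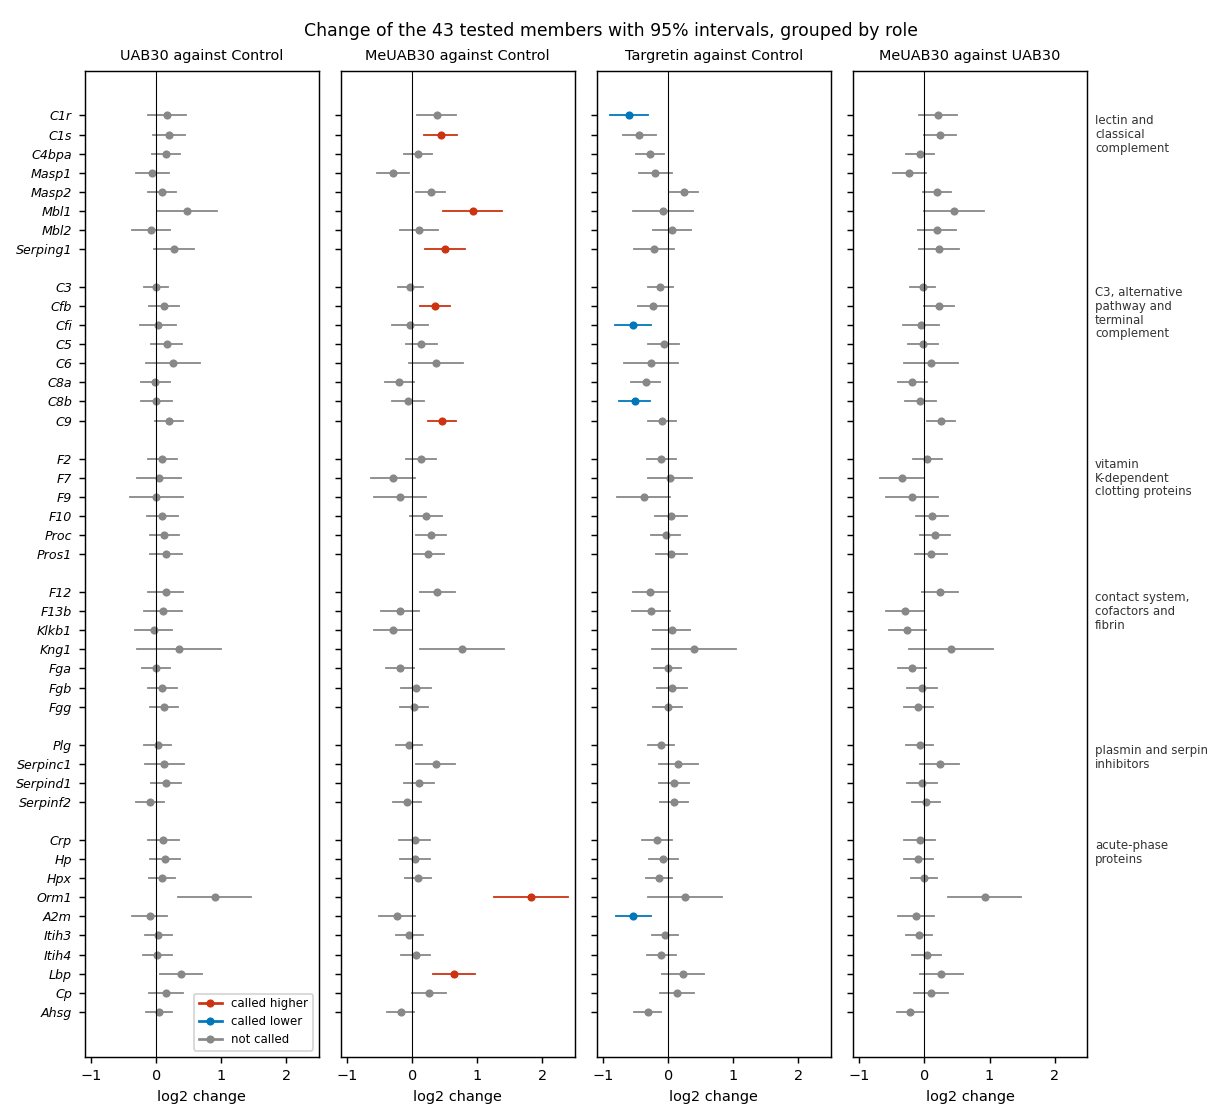
Log2 change of each of the 43 tested genes (points) with its 95% interval (lines) in the 4 comparisons, grouped by role; red marks genes called higher, blue genes called lower and grey genes not called. Red points stand in the MeUAB30 against Control panel, led by Orm1 at 1.82, and blue points in the Targretin against Control panel, from -0.52 to -0.60.

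In the lectin and classical complement group, 3 of 8 tested genes rose with MeUAB30 (C1s, Mbl1 and Serping1) and 1 fell with Targretin (C1r). The shares called were 37.5% with MeUAB30 and 12.5% with Targretin. Beside them stood 9.89% and 2.18% of all genes, and 29.8% and 9.95% of the bright genes. The median change of the 8 was 0.33 with MeUAB30, -0.21 with Targretin and 0.15 with UAB30. Mbl1, the mannose-binding lectin of serum in rats, stood at 10.65, 10.17, 9.76 and 10.19 on the UAB30 arrays, at 10.43, 10.64, 10.87 and 10.66 on the MeUAB30 arrays, at 9.97, 9.06, 9.86 and 9.67 on the Targretin arrays and at 9.71, 10.10, 9.25 and 9.83 on the Control arrays. All 4 MeUAB30 arrays lay above all 4 Control arrays, while the UAB30 and Targretin arrays overlapped Control. Its change with MeUAB30 was 0.93 ± 0.22 (SE; 1.90-fold, adjusted p = 0.0114), and its 4 probe sets gave 0.72 to 1.05. The call held in each alternative run, leaving out any array included. The other mannose-binding lectin, Mbl2, differed by 0.11 with MeUAB30 (adjusted p = 0.711).

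C1r and C1s are the paired serine proteases of the C1 complex, and their genes are direct neighbours among the protein-coding genes of the GRCr8 assembly. C1s stood at 12.01, 11.89, 11.88 and 12.06 with UAB30, at 12.25, 12.11, 12.34 and 12.09 with MeUAB30, at 11.47, 11.29, 11.27 and 11.22 with Targretin and at 11.76, 11.97, 11.49 and 11.82 in Control. C1r stood at 12.00, 11.66, 11.76 and 11.84 with UAB30, at 12.05, 12.07, 11.99 and 12.01 with MeUAB30, at 11.27, 10.62, 11.13 and 11.20 with Targretin and at 11.70, 11.86, 11.56 and 11.51 in Control. For both genes every MeUAB30 array lay above, and every Targretin array below, all Control arrays. C1s rose with MeUAB30 by 0.44 ± 0.12 (SE; adjusted p = 0.0261) and differed by -0.45 with Targretin (adjusted p = 0.0619). C1r fell by 0.60 ± 0.14 (SE) with Targretin (1.52-fold, adjusted p = 0.0275) and differed by 0.37 with MeUAB30 (adjusted p = 0.106). Thus the threshold split the pair differently in each diet, although the change of both had the same sign within a diet. The C1s call ended without MeUAB30 1 (adjusted p = 0.0541), MeUAB30 3 (0.0937), Control 1 (0.059), Control 3 (0.0584) or Control 4 (0.0542), without all 4 narrow-range arrays (0.0519), and in a fit of the 8 MeUAB30 and Control arrays alone (0.0772). The C1r call ended without Targretin 3 (adjusted p = 0.0586), Control 1 (0.0787) or Control 2 (0.0792), with the mean over probe sets (0.0635), and in a fit of the 8 Targretin and Control arrays alone (0.209).

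Serping1 encodes the C1 inhibitor, the serpin that inactivates C1r, C1s and plasma kallikrein. It stood at 12.59, 12.09, 12.18 and 12.25 with UAB30, at 12.58, 12.53, 12.46 and 12.44 with MeUAB30, at 12.04, 11.44, 11.80 and 11.84 with Targretin and at 11.90, 12.31, 11.93 and 11.88 in Control. The MeUAB30 arrays lay above all Control arrays, of which Control 2 was apart from the other 3. Its rise with MeUAB30 was 0.50 ± 0.15 (SE; 1.41-fold, adjusted p = 0.0375). The call ended without MeUAB30 1 (adjusted p = 0.0792), 2 (0.0894), 3 (0.0798) or 4 (0.0668), and without Control 1 (0.1), 3 (0.0656) or 4 (0.117). The lectin-associated proteases were of opposite sign and not called with MeUAB30, at -0.30 for Masp1 and 0.28 for Masp2 (adjusted p = 0.138 and 0.102), both named after their values were seen. With Targretin 2 and Control 3 left out, 4 of the 8 genes of this group rose with MeUAB30 (C1r, C1s, Mbl1 and Serping1). Masp1 fell with MeUAB30, and C1r and C1s fell with Targretin. Without the narrow-range arrays, Mbl1 and Serping1 rose with MeUAB30, and C1r and C1s fell with Targretin.

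The 250 bases before the RefSeq start of C1r and Mbl1 are shown because both genes were called and had an entry in the promoter table, which holds none for C1s and Serping1; they come from the GRCr8 assembly, plus strand, at chr4:159098763-159099012 and chr16:17062982-17063231. Capitals mark the only match found to a searched motif, TTGCNNAA of the C/EBP type on the opposite strand of C1r, 83 to 76 bases before the start; Mbl1 had no match in this window.
C1r: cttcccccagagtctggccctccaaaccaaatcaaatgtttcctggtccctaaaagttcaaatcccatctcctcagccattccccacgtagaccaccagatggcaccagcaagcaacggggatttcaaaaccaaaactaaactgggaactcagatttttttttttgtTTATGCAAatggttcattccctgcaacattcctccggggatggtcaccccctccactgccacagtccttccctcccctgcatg
Mbl1: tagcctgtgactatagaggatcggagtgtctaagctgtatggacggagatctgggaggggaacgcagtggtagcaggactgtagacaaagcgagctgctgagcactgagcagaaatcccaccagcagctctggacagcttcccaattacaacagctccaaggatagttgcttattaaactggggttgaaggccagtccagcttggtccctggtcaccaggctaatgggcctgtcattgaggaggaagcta

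In the central, alternative and terminal steps of complement, 2 of 8 tested genes rose with MeUAB30 (C9 and Cfb) and 2 fell with Targretin (C8b and Cfi). The share called was 25% with each. Beside it stood 9.89% of all genes and 29.8% of the bright genes with MeUAB30, and 2.18% and 9.95% with Targretin. All 8 changes were below 0 with Targretin, with a median of -0.25, while the medians were 0.06 with MeUAB30 and 0.07 with UAB30. C3, the convergence point of the 3 complement pathways, ran from 13.40 to 13.46 with UAB30, 13.34 to 13.44 with MeUAB30, 13.27 to 13.34 with Targretin and 13.38 to 13.47 in Control. C3 differed from Control by -0.13 with Targretin (adjusted p = 0.731), although the Targretin and Control arrays did not overlap.

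C9, which polymerises to form the pore of the membrane attack complex, stood at 12.66, 12.43, 12.41 and 12.67 with UAB30, at 12.82, 12.80, 12.80 and 12.76 with MeUAB30, at 12.32, 12.20, 12.27 and 12.17 with Targretin and at 12.41, 12.28, 12.31 and 12.36 in Control. The lowest MeUAB30 array was above every array of the other 3 diets. The rise over Control was 0.46 ± 0.10 (SE; 1.37-fold, adjusted p = 0.00855), and the call held in each alternative run. Cfb, the protease subunit of the alternative pathway convertase, stood at 12.26, 11.88, 12.05 and 12.05 with UAB30, at 12.22, 12.44, 12.19 and 12.31 with MeUAB30, at 11.71, 11.71, 11.61 and 11.75 with Targretin and at 11.98, 12.01, 11.82 and 11.91 in Control. Both MeUAB30 and Targretin arrays were clear of the Control arrays, on opposite sides. Cfb rose by 0.36 ± 0.11 (SE) with MeUAB30 (1.28-fold, adjusted p = 0.0470) and differed by -0.24 with Targretin (adjusted p = 0.430). The Cfb call ended without MeUAB30 1 (adjusted p = 0.0564), 2 (0.153), 3 (0.0741) or 4 (0.102), and without Control 1 (0.0806), 3 (0.0808) or 4 (0.113), under centring on the median of kept probe sets (0.105), and in a fit of the 8 arrays alone (0.108).

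Cfi, the protease that degrades C3b and C4b, stood at 12.16, 11.92, 11.78 and 12.05 with UAB30, at 11.96, 11.84, 11.96 and 11.93 with MeUAB30, at 11.67, 11.21, 11.51 and 11.29 with Targretin and at 12.02, 12.10, 11.67 and 12.04 in Control. C8b, a chain of the membrane attack complex component C8, stood at 11.63, 11.54, 11.47 and 11.65 with UAB30, at 11.43, 11.49, 11.60 and 11.51 with MeUAB30, at 11.13, 10.79, 11.22 and 11.08 with Targretin and at 11.63, 11.73, 11.50 and 11.43 in Control. Every Targretin array of C8b and Cfi lay below every Control array, by the narrowest margin for Cfi, where Targretin 1 stood at 11.67 beside 11.67 on Control 3. Cfi fell with Targretin by 0.54 ± 0.13 (SE; 1.45-fold, adjusted p = 0.0374) and C8b by 0.52 ± 0.11 (SE; 1.43-fold, adjusted p = 0.0206). C8a, the neighbouring gene for another chain of C8, differed by -0.35 (adjusted p = 0.119) and its Targretin arrays, 11.76 to 11.89, lay below Control at 12.04 to 12.25; it was named after its values were seen. The Cfi call ended without Targretin 2 (adjusted p = 0.0656), 3 (0.074) or 4 (0.133), and without Control 1 (0.109), 2 (0.0962) or 4 (0.121). The C8b call ended without Targretin 4 (adjusted p = 0.0546), Control 1 (0.0639) or Control 2 (0.0599). A fit of the 8 arrays alone ended both (0.233 for Cfi and 0.207 for C8b). The calls of the central and terminal group were the same genes without Targretin 2 and Control 3. Without the narrow-range arrays, C6 was also called higher with MeUAB30 and C8a lower with Targretin.

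Windows of 250 bases from the promoter table are shown for C8b (chr5:124763864-124764113) and Cfi (chr2:221063066-221063315), GRCr8, plus strand, because these genes fell with Targretin. The transcript start that the table uses lies inside the listed gene, 140 bases past its outermost start for C8b and 1110 bases past it for Cfi, so the whole Cfi window and the marked C8b match are within the gene. Capitals mark a C/EBP-type match on the opposite strand of C8b, 128 to 121 bases before the start used, and an NF-kappa-B-type match, GGGNNTTCC, on the printed strand of Cfi, 38 to 30 bases before the start used.
C8b: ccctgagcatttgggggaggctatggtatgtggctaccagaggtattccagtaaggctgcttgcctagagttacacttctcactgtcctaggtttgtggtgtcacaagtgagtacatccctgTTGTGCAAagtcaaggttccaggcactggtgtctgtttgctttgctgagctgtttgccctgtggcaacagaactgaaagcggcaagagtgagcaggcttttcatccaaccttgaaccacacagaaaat
Cfi: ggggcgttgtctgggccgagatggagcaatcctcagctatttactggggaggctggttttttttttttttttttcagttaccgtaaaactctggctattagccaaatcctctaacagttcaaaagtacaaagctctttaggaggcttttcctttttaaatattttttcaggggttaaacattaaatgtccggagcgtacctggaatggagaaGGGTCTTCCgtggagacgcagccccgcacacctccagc

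None of the 17 tested clotting, fibrin, plasmin and serpin genes was called in any of the 4 comparisons. Beside this stood 9.89% of all genes and 29.8% of the bright genes with MeUAB30, and 2.18% and 9.95% with Targretin. The shares of all genes were 0.0823% with UAB30 and 1.39% between MeUAB30 and UAB30. The MeUAB30 arrays of F10, Proc, F12 and Serpinc1 lay above all Control arrays, beside 11.7% of all genes. The Targretin arrays of F12 lay below all Control arrays, beside 2.34% of all genes. Nothing particular to the 17 genes is read from these counts. Without Targretin 2 and Control 3, F12 was called higher and Klkb1 and F7 lower with MeUAB30, and without the narrow-range arrays F12 was called higher and Fga and Klkb1 lower. Of the 6 vitamin K-dependent proteins, the medians were 0.09 with UAB30, 0.17 with MeUAB30 and -0.01 with Targretin. Prothrombin (F2), the precursor of thrombin, ran from 12.31 to 12.59 with UAB30, 12.38 to 12.61 with MeUAB30, 12.14 to 12.33 with Targretin and 12.20 to 12.43 in Control, and its change was 0.14 with MeUAB30 (adjusted p = 0.509). The changes of the 6 lay between -0.30 and 0.28 with MeUAB30 and between -0.38 and 0.05 with Targretin.

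The 3 fibrinogen chains are neighbouring genes that make a single hexameric protein. Fga ran from 13.22 to 13.30 with UAB30, 12.97 to 13.29 with MeUAB30, 13.17 to 13.31 with Targretin and 13.23 to 13.31 in Control. Fgb ran from 13.42 to 13.69 with UAB30, 13.40 to 13.72 with MeUAB30, 13.42 to 13.64 with Targretin and 13.39 to 13.55 in Control. Fgg ran from 13.28 to 13.54 with UAB30, 13.22 to 13.45 with MeUAB30, 13.16 to 13.31 with Targretin and 13.17 to 13.37 in Control. The groups overlapped for all 3 chains, and their changes with MeUAB30 were -0.19, 0.06 and 0.02 for Fga, Fgb and Fgg (adjusted p = 0.272, 0.818 and 0.931). Among the contact proteins, F12, the factor that starts the contact pathway, differed by 0.38 with MeUAB30 (adjusted p = 0.0697), and Kng1 by 0.76 (adjusted p = 0.138), with MeUAB30 arrays at 9.67 to 10.20 and Control arrays at 8.36 to 9.79; both were named after their values were seen. The 4 plasmin and serpin genes had medians of 0.07 with UAB30, 0.03 with MeUAB30 and 0.09 with Targretin.

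Of the 10 acute-phase genes, 2 rose with MeUAB30 (Orm1 and Lbp) and 1 fell with Targretin (A2m). The shares called, 20% and 10%, stood beside 9.89% and 2.18% of all genes, and 29.8% and 9.95% of the bright genes. The medians of the 10 were 0.10 with UAB30, 0.05 with MeUAB30 and -0.09 with Targretin, so Orm1 and Lbp stood away from the rest of their group. Orm1, the plasma carrier glycoprotein alpha-1-acid glycoprotein, stood at 11.55, 10.995, 10.84 and 11.17 on the UAB30 arrays, at 11.84, 12.16, 12.04 and 12.23 on the MeUAB30 arrays, at 10.77, 9.86, 10.79 and 10.57 on the Targretin arrays and at 10.13, 10.88, 9.37 and 10.58 on the Control arrays. The lowest MeUAB30 array was above every array of the other diets, whereas the UAB30 and Targretin arrays overlapped Control. With MeUAB30 it averaged 12.07 ± 0.17 and in Control 10.24 ± 0.65 (SD, n = 4 each), a rise of 1.82 ± 0.27 (SE; 95% interval 1.26 to 2.39, 3.54-fold, adjusted p = 0.000403). The change was 0.90 with UAB30 (adjusted p = 0.371) and 0.26 with Targretin (adjusted p = 0.865). All 7 probe sets of Orm1 were higher with MeUAB30, by 1.19 to 2.59. The call held in each alternative run, with a change of 1.54 without Targretin 2 and Control 3 and 1.61 without the 4 narrow-range arrays.

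The 250 bases before the RefSeq start of Orm1 (chr5:81788259-81788508, GRCr8, plus strand) are shown because Orm1 had the largest change of the 43 genes. Capitals mark a C/EBP-type match on the opposite strand, 123 to 116 bases before the start.
Orm1: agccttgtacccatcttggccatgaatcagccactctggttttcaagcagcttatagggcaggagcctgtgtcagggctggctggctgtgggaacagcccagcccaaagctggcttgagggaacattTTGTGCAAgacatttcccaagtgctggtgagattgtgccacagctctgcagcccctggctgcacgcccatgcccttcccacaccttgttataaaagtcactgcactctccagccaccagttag

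Lbp, which carries bacterial lipopolysaccharide to CD14, stood at 10.88, 10.46, 10.71 and 10.51 with UAB30, at 11.11, 10.91, 10.63 and 10.97 with MeUAB30, at 10.51, 10.38, 10.36 and 10.69 with Targretin and at 10.43, 10.54, 9.90 and 10.17 in Control. The MeUAB30 arrays were above all Control arrays. The rise was 0.64 ± 0.15 (SE; 1.56-fold, adjusted p = 0.0131), held without any single array, and was not called without all 4 narrow-range arrays (adjusted p = 0.0502). A2m, the broad protease inhibitor alpha-2-macroglobulin, stood at 6.97, 6.96, 7.19 and 6.86 with UAB30, at 6.94, 6.88, 6.69 and 6.94 with MeUAB30, at 6.56, 6.45, 6.73 and 6.49 with Targretin and at 7.31, 6.84, 7.27 and 6.96 in Control. Every Targretin array was below every Control array, at gene levels close to the threshold of 6.01, although single probe sets of A2m reached a mean of 10.50. A2m fell with Targretin by 0.54 ± 0.13 (SE; 1.45-fold, adjusted p = 0.0331), with its 11 probe sets all lower, from -1.52 to -0.08. The A2m call ended without Targretin 1 (adjusted p = 0.0805), 2 (0.0533) or 4 (0.109), without Control 1 (0.126) or 3 (0.0837), without Targretin 2 and Control 3 together (0.106), without the narrow-range arrays (0.082), under the 90th percentile filter (0.125) and centring (0.140), and in a fit of the 8 arrays alone (0.213). With no filter on dim probe sets it was -0.86. In the acute-phase group, Orm1 and Lbp rose with MeUAB30 and 0 genes were called with Targretin without Targretin 2 and Control 3; without the narrow-range arrays, Orm1 alone rose.

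The other classical acute-phase genes were not called. Crp ran from 13.70 to 13.84 with UAB30, 13.55 to 13.84 with MeUAB30, 13.32 to 13.62 with Targretin and 13.48 to 13.79 in Control. Hp, the haemoglobin-binding haptoglobin, ran from 13.13 to 13.49 with UAB30, 13.16 to 13.30 with MeUAB30, 12.98 to 13.21 with Targretin and 13.13 to 13.26 in Control. The groups of both genes overlapped. Ahsg, a negative acute-phase protein, ran from 13.53 to 13.62 with UAB30, 13.31 to 13.41 with MeUAB30, 13.08 to 13.31 with Targretin and 13.46 to 13.61 in Control. Its MeUAB30 and Targretin arrays lay below every Control array, with changes of -0.18 and -0.32 (adjusted p = 0.292 and 0.117).

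**Figure D3:**
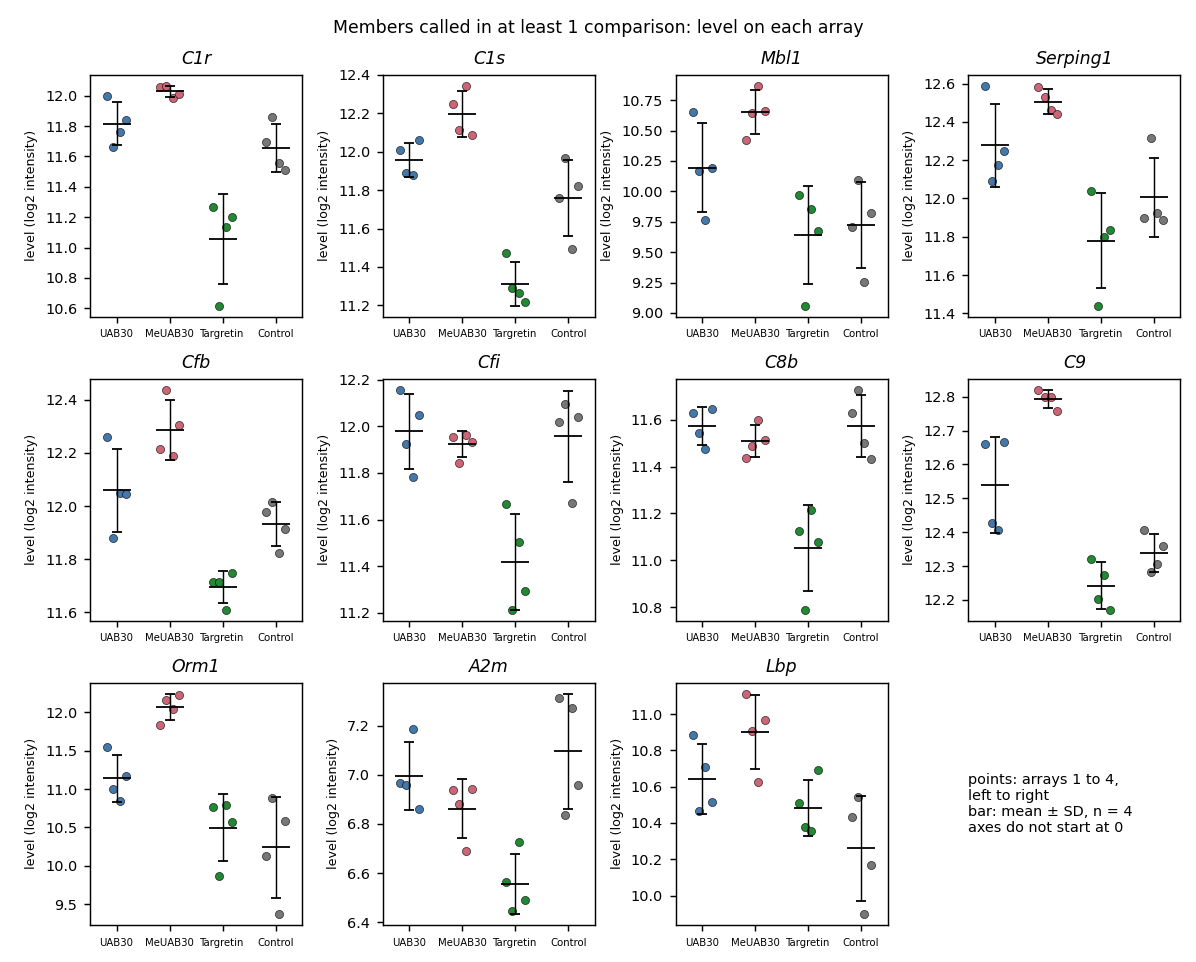
Level (log2 intensity) of the 11 genes called in at least 1 comparison, on each array (points, arrays 1 to 4 from left to right) with the group mean and SD (bars, n = 4); the axes do not start at 0. The MeUAB30 arrays of Orm1, 11.84 to 12.23, lie above all other arrays, and the Targretin arrays of C8b, 10.79 to 11.22, lie below all others.

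**Figure D4:**
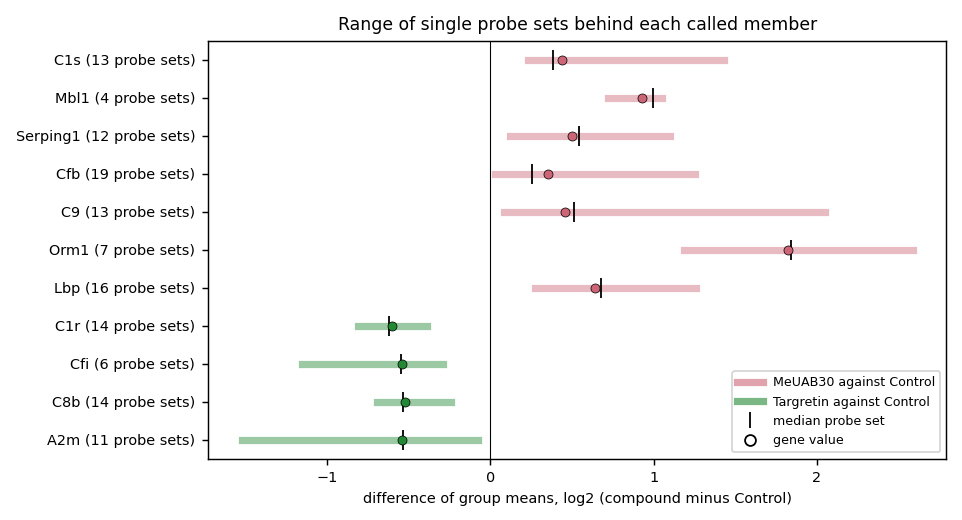
Range of the log2 difference of single probe sets (coloured bars), their median (black tick) and the gene value (circle) for each called gene, MeUAB30 minus Control (upper 7 rows) and Targretin minus Control (lower 4 rows). No bar crosses 0, although the range within a gene is wide, from 0.08 to 2.05 for C9.

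Every kept probe set of the 11 called genes had the sign of its gene in the comparison that called it. Over all 600 probe sets, 76% had the sign of their gene with UAB30, 78.8% with MeUAB30 and 88.7% with Targretin. The probe sets of a gene share its samples and are not replicates.

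Between MeUAB30 and UAB30, which were fed at the same dose, 0 of the 43 genes were called, beside 1.39% of all genes, and 5 had an unadjusted p under 0.05, as did 11.3% of all genes. These 43 comparisons were adjusted together with all 12156 genes. The differences had a median of -0.01, beside 0.02 for all genes, and their 95% intervals spanned -0.68 to 1.49 in all. For 36 of the 43 genes the interval lay within a change of 1.5-fold in either direction; the exceptions were Mbl1, F7, F9, F13b, Kng1, Orm1 and Lbp. Orm1 averaged 12.07 ± 0.17 with MeUAB30 and 11.14 ± 0.31 with UAB30 (SD, n = 4 each), a difference of 0.93 with a 95% interval of 0.36 to 1.49 (adjusted p = 0.115). The 4 MeUAB30 arrays lay above the 4 UAB30 arrays for C1s, C9 and Orm1 and below them for Ahsg, beside 8.31% of all genes with groups that did not overlap, 4.66% higher and 3.64% lower. Without Targretin 2 and Control 3, and likewise without the 4 narrow-range arrays, 1 of the 43 genes was called, Orm1. Over all genes, the former run called 222 higher and 196 lower and the latter 183 and 155, beside 169 called in the main model.

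Values for Targretin, fed at the lower dose, stand beside these without a comparison. C1r averaged 11.82 ± 0.14 with UAB30, 12.03 ± 0.04 with MeUAB30, 11.06 ± 0.30 with Targretin and 11.66 ± 0.16 in Control (SD, n = 4 each). The mean level of all 43 genes was 11.83 ± 0.10 with UAB30, 11.88 ± 0.01 with MeUAB30, 11.60 ± 0.14 with Targretin and 11.71 ± 0.09 in Control.

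Over all 16 arrays, the genes outside the list whose levels followed Orm1 most closely were Fbxo7 (r = 0.965), Ndufs5 (0.958) and Marchf2 (0.954). Mbl1 was followed by Prdx2 (0.957), Ninj1 (0.956) and Rpl6 (0.953), and Lbp by Nfkbie (0.902), Akr1b1 (0.895) and Gnb2 (0.887). These correlations describe arrays that share diet differences and intensity range.

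Among acute-phase and plasma proteins outside the list, 5 of 21 tested genes rose and 2 fell with MeUAB30, and 0 were called with UAB30 or Targretin. The share called with MeUAB30, 33.3%, stood beside 9.89% of all genes and 29.8% of the bright genes. Nothing particular to this list or the other outside lists below is read from such shares. Fgl1, a hepatocyte-secreted protein of the fibrinogen family, averaged 11.88 ± 0.10 with MeUAB30 and 10.27 ± 0.40 in Control (SD, n = 4 each), a rise of 1.61 (3.05-fold, adjusted p = 0.000205). Apcs, the pentraxin serum amyloid P, rose by 0.94 (adjusted p = 0.000551), and Lcn2, an iron-siderophore binding protein, by 0.80 (adjusted p = 0.0107), but by 0.29 and not called under the 90th percentile filter (adjusted p = 0.451). Afm, which carries vitamin E, fell by 0.72 (adjusted p = 0.0156), a call that ended without Control 1 (0.0504). Pzp, a relative of A2m, fell by 0.42 (adjusted p = 0.0136). Without Targretin 2 and Control 3, 6 rose and 4 fell with MeUAB30, and 1 rose (Hamp) and 1 fell (Afm) with Targretin. Without the narrow-range arrays the counts were 5 and 4 with MeUAB30, and again Hamp and Afm with Targretin.

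Outside the list, 2 of 15 tested complement genes rose and 1 fell with MeUAB30, a share of 20% beside 9.89% of all genes and 29.8% of the bright genes. Cr1l rose by 0.78 (adjusted p = 0.0181), Fcna, which encodes a ficolin, by 0.59 (0.0445), and Cd55, a regulator that speeds decay of the C3 convertases, fell by 0.58 (0.0497). The Cr1l call ended without MeUAB30 3 (adjusted p = 0.0523) or 4 (0.0608) or Control 4 (0.0539). The Fcna call ended without any MeUAB30 array or Control 1, 3 or 4 (highest adjusted p 0.137), and the Cd55 call without MeUAB30 1, 2 or 4 or Control 1, 2 or 4 (highest 0.180). The Cd55 change was -0.05 with no filter on dim probe sets (adjusted p = 0.858) and -0.23 under the 90th percentile filter (0.417), and the call also ended with the mean over probe sets (0.0521) and in a fit of the 8 arrays (0.0781). The Fcna call ended with no filter (0.0581). Without Targretin 2 and Control 3, 3 of the 15 rose (C1qc besides) and 1 fell with MeUAB30; without the narrow-range arrays 4 rose (C1qc and C8g besides) and 1 fell, and C4bpb fell with Targretin. Of 19 tested clotting genes outside the list, 2 rose and 1 fell with MeUAB30, a share of 15.8% beside the same 2 shares. Vkorc1, the vitamin K epoxide reductase, rose by 0.71 (adjusted p = 0.00946), Hgfac, the protease that activates hepatocyte growth factor, by 0.61 (0.00949), and Habp2, the factor VII-activating protease, fell by 0.61 (0.00367). With Targretin 1 of the 19 rose: Ggcx, the vitamin K-dependent carboxylase, averaged 10.11 ± 0.08 with Targretin and 9.50 ± 0.21 in Control (SD, n = 4 each; 0.61, adjusted p = 0.00662). The Ggcx call ended in a fit of the 8 arrays alone (adjusted p = 0.111). It made 5.26% of the 19, beside 2.18% of all genes called with Targretin. In both runs without arrays, Mst1 was also called higher and Hgf lower with MeUAB30.

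In the signalling and transcription lists, Cebpb, which encodes C/EBP beta, averaged 9.08 ± 0.05 with MeUAB30, 8.50 ± 0.24 with UAB30 and 8.36 ± 0.13 in Control (SD, n = 4 each). It rose with MeUAB30 over Control by 0.72 (adjusted p = 0.00286), 1 of 2 higher calls among 10 transcription factors. Foxa3 rose by 0.52 (adjusted p = 0.0275) and Nr5a2 fell by 0.57 (0.0379). The share of the 10 called with MeUAB30 was 30%, beside 9.89% of all genes and 29.8% of the bright genes. With Targretin, Onecut1 fell by 0.85 (adjusted p = 0.0265), 10% of the list beside 2.18% of all genes and 9.95% of the bright genes called. Of 12 interleukin-6 and interleukin-1 signalling genes, Il1r1, the interleukin-1 receptor, rose with MeUAB30 by 0.42 (adjusted p = 0.0466), 8.33% of that list. The Foxa3 call ended without MeUAB30 1, MeUAB30 4, Control 1, Control 3 or Control 4 (highest adjusted p 0.101), the Nr5a2 call without MeUAB30 1, 2 or 3 or Control 1, 2 or 4 (highest 0.125), the Onecut1 call without Targretin 3 or Control 1, 3 or 4 (highest 0.101), and the Il1r1 call without MeUAB30 1, 3 or 4 or Control 1, 3 or 4 (highest 0.152). The Il1r1 call ended in 14 of 21 alternatives, among them quantile normalization (0.0714), centring (0.121), the mean over probe sets (0.0671) and the runs without Targretin 2 and Control 3 (0.0591) or the narrow-range arrays (0.28, adjusted p = 0.134). In both those runs Il6st and Jak2 were called lower instead. The Onecut1 call with Targretin also ended in both (adjusted p = 0.0836 and 0.0799) and in a fit of the 8 arrays (0.130); in both, Foxa2 was called higher and Prox1 lower with Targretin. With MeUAB30, Foxa3 was not called without the narrow-range arrays (0.0521), under the 90th percentile filter (0.34, adjusted p = 0.119) or in a fit of the 8 arrays (0.0661), and Nr5a2 was not called with the mean over probe sets (0.0665). Of the 10 transcription factors, 2 rose and 5 fell with MeUAB30 without Targretin 2 and Control 3, and 1 rose and 4 fell without the narrow-range arrays.

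Of 18 genes of the secretory pathway, through which all the plasma proteins pass, 3 rose and 2 fell with MeUAB30. That share of 27.8% stood beside 9.89% of all genes and 29.8% of the bright genes. Spcs1, a signal peptidase subunit, rose by 0.98 (adjusted p = 0.00179), Ssr4, a translocon-associated subunit, by 0.81 (0.00416), and Pdia6, a disulfide isomerase, by 0.44 (0.0479). Lman1, the cargo receptor for factors V and VIII, fell by 0.46 (adjusted p = 0.0308), and Sec61a1, the channel of the translocon, by 0.40 (0.0176). The Pdia6 call ended without any MeUAB30 array or Control 1, 3 or 4 (highest adjusted p 0.137), the Lman1 call without MeUAB30 1, 2 or 3 or Control 1, 2 or 4 (highest 0.0899), and the Sec61a1 call without MeUAB30 2 or Control 1 (highest 0.0633). Between MeUAB30 and UAB30, Fgl1 (0.92, adjusted p = 0.0430) and Cebpb (0.58, 0.0401) rose, and Habp2 (-0.57, 0.0209) and Mcfd2 (-0.54, 0.0485), the partner of Lman1, fell. Among these, the Fgl1 and Cebpb calls ended without UAB30 2, 3 or 4 or any MeUAB30 array (highest adjusted p 0.131 and 0.161). The Habp2 call ended without UAB30 1, 3 or 4 or MeUAB30 1, 2 or 3 (highest 0.0971), and the Mcfd2 call without UAB30 2, 3 or 4 or MeUAB30 1, 2 or 3 (highest 0.198). Without the narrow-range arrays the Cebpb (0.051) and Mcfd2 (0.0616) calls ended as well, and other settings ended the calls of Fgl1 (no filter, 0.0584) and Mcfd2 (mean over probe sets, 0.0678; 8 arrays, 0.0568). Against Control, fits of the 8 arrays ended the calls of Pdia6 (0.058), Lman1 (0.0708) and Sec61a1 (0.0696), and Pdia6 was not called under the 90th percentile filter (0.0618) or with the mean over probe sets (0.0694). Of the 18 secretory genes, 3 rose and 4 fell with MeUAB30 without Targretin 2 and Control 3, and 4 rose and 4 fell without the narrow-range arrays, where Ssr2 also rose with Targretin. Both runs also called Afm and Pzp lower between MeUAB30 and UAB30, and the run without Targretin 2 and Control 3 called Apcs, Foxa3 and Pdia6 higher there.

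Of the 47 genes, 37 had a promoter in the RefSeq table, and each window of 250 bases was searched on both strands. Each listed gene was counted through its first entry alone. The 33469 promoters set beside them were all entries of the table, so a gene with several entries counts more than once there. The motif TTGCNNAA of the C/EBP type was found in 17 of 37 (45.9%), beside 9.22% of 33469 promoters. The nuclear receptor hexamer AGGTCA was found in 15 (40.5%, beside 14.1%) and the HNF1 hexamer GTTAAT in 9 (24.3%, beside 6.45%). TTCNNNGAA of the STAT type was found in 6 (16.2%, beside 7.67%) and GGGNNTTCC of the NF-kappa-B type in 2 (5.41%, beside 5.09%). The start in the table was the outermost start of the gene for 24 of the 37 and lay inside the gene for 13. A match describes letters and not a bound site.

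Markers of other liver cells were measured beside these results. The summed intensity of the 6 tested hepatocyte markers of 7 (Apoa1 was not tested) was 49430 to 50830 on the MeUAB30 arrays and 55660 to 59920 on the Control arrays, and 2 of them fell with MeUAB30 (Apob and Tat). It was 54410 to 58830 with UAB30 and 53050 to 59520 with Targretin. The share of hepatocyte markers called with MeUAB30, 33.3%, stood beside 9.89% of all genes and 29.8% of the bright genes. The Apob call ended without any MeUAB30 array or Control 1, 2 or 4 (highest adjusted p 0.145) and the Tat call without MeUAB30 1, MeUAB30 2, Control 1, Control 2 or Control 4 (highest 0.131). Fits of the 8 arrays ended both (0.111 for Apob and 0.0759 for Tat), and the mean over probe sets ended that of Tat (0.0521). The 9 tested Kupffer cell and macrophage markers of 10 (Cd163 was not tested) had median changes of 0.41 with UAB30, 0.56 with MeUAB30 and 0.09 with Targretin, with 0 called in limma. At an unadjusted p under 0.05 there were 1, 6 and 1 of them, beside 7.83%, 23.2% and 10.9% of all genes. Their sums ran from 3332 to 5529 with UAB30, 3762 to 4502 with MeUAB30, 2285 to 4776 with Targretin and 2321 to 4400 in Control. The 2 tested neutrophil markers of 5 (S100a8, Camp and Ngp were not tested) summed to 122.2 to 235.8 with UAB30, 184.5 to 204 with MeUAB30, 126 to 214.9 with Targretin and 110.1 to 140.6 in Control. Of these 2 dim genes 0 were called, and their sums stand beside a threshold intensity of 63.6 for 1 probe set. Of 3 tested erythroid markers of 4, Epb42 fell with MeUAB30, by 0.61 (-0.26 and not called with no filter on dim probe sets, adjusted p = 0.344), and the median of the 3 was -0.48 with Targretin, all below 0. The 4 endothelial, 5 stellate and fibroblast, 3 cholangiocyte and 3 lymphocyte markers tested had 0 calls in the 3 comparisons with Control. With Targretin the stellate and fibroblast median was -0.34, with 4 of 5 below 0 and 2 at an unadjusted p under 0.05. Leaving out Targretin 2 and Control 3, C1qc was called higher and Reln lower with MeUAB30, and Col3a1 and the erythroid Alas2 lower with Targretin. Without the narrow-range arrays, C1qc and Epcam were called higher and Reln lower with MeUAB30, and Col3a1 lower with Targretin, while Tat was no longer called (0.0604). The Kupffer cell markers include the complement genes C1qa, C1qb and C1qc, and the part of these cells in the changes of the plasma protein genes, like that of the other cell types, was not tested.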

How the data were processed

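The intensities deposited by the authors were 1 linear value per probe set and array, for 887828 probe sets on 16 arrays with 0 missing values and 0 columns of other samples. How they were summarised, background-corrected and normalized is not given in the sources used here. Build rn4 stands behind them per the submitters' processing notes; names came from the platform annotation updated through RefSeq (GRCr8), so no probe set coordinates are given. A single symbol was paired with 177688 probe sets (20.0%), several with 2920 and none with 707220.

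Intensities were used as log2(intensity + 1), kept at the 75th percentile (log2 6.01), and summarised per gene by median polish. The model, lmFit and eBayes of limma 3.58.1 (R 4.3.3; tables read with version 1.17.8 of data.table), had a mean for each diet and took in the 16 arrays together. All adjusted p-values come from this model, by Benjamini-Hochberg over 12156 genes within each comparison, with a threshold of 0.05; rose, fell and called refer to it. The code was tested on simulated data. Array values have no count behind them, and the number of arrays limits the precision. Groups and replicate numbers came from the titles. The correlations of same-numbered arrays' deviations from their group means ran from -0.504 to 0.574, so the numbers were not taken as pairs.

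The listed genes, the other lists and the tests were chosen with earlier results of these data known. Named genes were all called listed genes plus C3, Fga, Fgb, Fgg, F2, Crp, Hp, A2m, Orm1 and Ahsg; up to 3 called genes per direction of each other list; and the 3 genes most correlated with each of the 3 most changed called genes. Other names were chosen after their values were seen. Alternatives varied the pseudocount, filter, normalization, summary, arrays, weights, block and a covariate.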

Additional observations from a re-analysis of the deposited data

Results flagged for a closer look

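The level of Serping1 on array Control 2 was 12.31, apart from the other 3 Control arrays, of which the nearest stood at 11.93 and the farthest at 11.88. The gap was 0.903 of the range of the group, above Dixon's 95% critical value for 4 samples. It was the only value so marked among 80 groups checked, and chance marks about 5% of groups.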

How the results depend on the processing

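No called gene changed sign in any alternative run. For MeUAB30 against Control (7 called), leaving out 1 array gave 4 to 8, with 4 without MeUAB30 1 or 3 or Control 1, 3 or 4. Array weights gave 14 (12 higher, 2 lower), the array's intensity range as a covariate 13 (9 higher, 4 lower), and leaving out Targretin 2 and Control 3, chosen after seeing the data, 12 (9 higher, 3 lower). Centring on the median of kept probe sets gave 9, 7 higher and 2 lower. Calls over all genes moved as well, from 958 higher and 244 lower in the main model. They were 1784 and 987 with array weights, 1422 and 1604 with the covariate, and 1424 and 742 with centring. Leaving out Targretin 2 and Control 3 gave 1283 and 1073. Leaving out 1 array gave 520 to 1166 higher and 114 to 463 lower over all genes. For Targretin against Control (4 called), leaving out 1 array gave 0 to 4, with 0 without Control 1, 1 without Targretin 4 or Control 2 and 2 without Targretin 2 or 3. The 8 arrays of this comparison alone gave 0 (for MeUAB30 against Control 5, without C1s and Cfb), the covariate 10, all lower, and quantile normalization 6. Over all genes, Targretin calls were 184 higher and 81 lower in the main model. They were 88 and 27 with the 8 arrays, 394 and 894 with the covariate, and 211 and 132 with quantile normalization. With 1 array left out they ran from 112 to 326 higher and from 40 to 114 lower. For UAB30 against Control (0 called), the covariate gave 1, and leaving out 1 array 0 to 0. Over all genes the covariate called 53 higher and 53 lower there, beside 10 called in the main model. For MeUAB30 against UAB30 (0 called), array weights gave 5 (3 higher, 2 lower) and the covariate 2. Centring, the 8 arrays alone, and leaving out either Targretin 2 and Control 3 or the 4 narrow-range arrays each gave 1. Leaving out 1 array gave 0 to 0. Over all genes, array weights called 841 higher and 496 lower there, and the covariate 319 and 407, beside 169 called in the main model. Centring called 230 and 240 there, and the 8 arrays alone 106 and 108. Leaving out Targretin 2 and Control 3 called 222 and 196, and leaving out the 4 narrow-range arrays 183 and 155. With the replicate number as a replicate block, the counts were 0 for UAB30, 5 for MeUAB30, 1 for Targretin and 0 between the analogs. The arrays share only a number. Over all genes, the block called 787 higher and 213 lower with MeUAB30, and 144 and 65 with Targretin. It called 10 and 1 with UAB30, and 68 and 68 between the analogs. The cause of these moves was not tested. Other pseudocounts, filters and the mean over probe sets left each count within 1.5 times. C1r, Cfi, C8b and A2m each lost their call under some alternative, A2m also under the 90th percentile filter (adjusted p = 0.125) and centring (0.140), and C1r under the mean over probe sets (0.0635). Differences of dim probe sets near the threshold are shrunk slightly by the pseudocount of 1. With no pseudocount, 955 of all genes were called higher and 244 lower with MeUAB30, and 184 and 81 with Targretin.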
